A study of Homo sapiens with 14 samples.

Results

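F3 and G7 name mutant lines derived from the human cell line OCI-AML2, which came from an acute myeloid leukaemia, and both carry R174*, a stop codon, on 1 RUNX1 allele beside an intact allele. The comparison of G7 with F3 without drug was chosen by the library labels alone and takes 2 untreated total RNA libraries of each line, 4 of the 14 libraries of the series. The cells grew in alpha-MEM with 20% serum, and the treatment label of these 4 libraries is a control of 8 h, while another label gives 0 h. Homoharringtonine (HHT), an inhibitor of translation elongation, had been given at 100 nM for 8 h to 2 other libraries of each line. The parent line, with RUNX1 intact on both alleles and the treatment label None, gave 2 total RNA libraries, and RNA pulled down on active ribosomes (RiboLace) came from the parent and F3. The labels do not say whether F3 and G7 are single-cell clones, or whether the replicates were cultured apart, so the p-values below measure only the spread between these libraries.

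RUNX1 is a DNA-binding transcription factor that pairs with CBFB and is needed for blood stem cells to form and for myeloid, lymphoid and platelet lineages to mature. Heterozygous truncating mutations of RUNX1 occur in acute myeloid leukaemia and in an inherited platelet disorder. Leukaemia cells of the myeloid series are arrested at stages that resemble the promyelocyte, which fills its granules with proteases and antimicrobial proteins, or the monocyte, which carries chemokine receptors and antigen presentation genes.

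Values are read counts per gene, given as CPM, each library's counts relative to its total after scaling by the trimmed mean of M values (TMM). The 4 libraries held 19250789 to 21334260 reads, and their replicates differed by more than counting error, the chi-square per degree of freedom being 7.48 in F3 and 11.3 in G7. A gene was called when its adjusted p in edgeR's quasi-likelihood test was under 0.05, and log2 fold changes are G7 over F3, so a positive value is higher in G7. Of 7 markers of myeloid leukaemia cells 5 were over 1 CPM, and the 7 summed to 902 and 898 CPM in F3 and 728 and 687 CPM in G7. In these libraries the erythroid markers HBB, HBA1, ALAS2 and AHSP, 3 of 4 T and NK cell markers (CD3D, CD3E and CD2) and 4 of 6 adherent cell markers (COL1A2, EPCAM, KRT18 and CDH1) were at 0 reads. The members of those lists above 1 CPM were VIM, vimentin, which myeloid cells also make, at 517 and 561 CPM in F3 and 270 and 292 CPM in G7, and NKG7, a granule membrane protein, at 14.2 and 15.9 CPM in F3 and 10.53 and 10.03 CPM in G7.

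The lines differed in 1743 of 13949 genes tested, 12.5% of them. In G7, 762 genes were higher (5.46% of those tested) and 981 lower (7.03%), and the median over all genes was 0.01. At least a 2-fold difference was reached by 207 of the higher and 259 of the lower genes. The 2 libraries of one line lay entirely above or below those of the other in 7525 genes, 53.9% of those tested, so a gap between the lines was common in this comparison. The number of calls leaned on the F3 libraries: 953 genes were called without F3 replicate 2 and 847 without F3 replicate 3, against 1550 and 1762 without either G7 library.

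RUNX1 itself (chr21:34787801-36004667, GRCh38, minus strand) stood at 75.4 and 78.8 CPM in F3 and at 126 and 109 CPM in G7, and both G7 libraries lay above both F3 libraries. The difference was 0.61 (SE 0.11, adjusted p = 0.000942), and the parent libraries, at 134 and 124 CPM, lay nearer to G7. This difference lay within the quartiles of the 138 tested genes of chromosome 21, 0.22 and 0.68, and RUNX1 ranked 47 among them. The median of that chromosome was also lower in F3 than in the parent, by -0.36 on the log2 scale. Counts per gene do not tell the R174* allele from the intact one. After HHT the line difference of RUNX1 was 0.28 (adjusted p = 0.000829). Its paralogs and partner were not called: RUNX2, at 97.4 and 90.7 CPM in F3 and 106 and 125 CPM in G7, differed by 0.30 (adjusted p = 0.154), RUNX3 by -0.11 (adjusted p = 0.566) and CBFB by 0.27 (adjusted p = 0.11). RUNX2 passed without G7 replicate 2 (adjusted p = 0.0336), and RUNX2 (0.0259) and CBFB (0.0445) passed in a fit of the 8 mutant libraries.

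The 12 largest rises in G7 included TUSC3, CEACAM6 and BPI. TUSC3 had the largest rise among called protein-coding genes at a mean of 5 CPM or more. It is a subunit of the oligosaccharyltransferase that adds sugars to new proteins. Its level was 0.795 and 0.864 CPM in F3 and 9.37 and 10.6 CPM in G7, a difference of 3.58 (SE 0.24, adjusted p = 3.55e-08). CEACAM6, a surface adhesion molecule of granulocytes, stood at 13.1 and 11.1 CPM in F3, against 125 and 115 CPM in G7 (3.32, SE 0.13, adjusted p = 2.13e-11). BPI, a granule protein that kills Gram-negative bacteria, rose from 43.4 and 43.1 CPM to 321 and 321 CPM (2.89, SE 0.11, adjusted p = 1.74e-11). These 3 genes did not order the parent alike: its libraries were near F3 for TUSC3 (0.989 and 1.04 CPM), between the lines for CEACAM6 (62.1 and 66.8 CPM) and below both for BPI (9.68 and 9.18 CPM).

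The other 9 of the 12 largest rises spanned 2.02 to 2.82. SORT1, a sorting receptor of the Golgi, had 1.54 and 1.73 CPM in F3 and 11.9 and 11.2 CPM in G7. CST7, a cysteine protease inhibitor of myeloid and killer cells, had 18.1 and 18.8 CPM in F3 and 129 and 127 CPM in G7. CLEC5A, a lectin receptor of myeloid cells, had 5.42 and 5.66 CPM in F3 and 30.4 and 30.5 CPM in G7. In each of these the replicates of a line lay close together and the lines far apart. The rule that picked the 12 favours this, as it asks for a call and no overlap between the lines. PRG3 (2.56), an eosinophil granule protein, ITGA2B (2.42), the platelet integrin subunit, and DEFA4 (2.33), a granule defensin, rose too. B3GNT7 (2.22), a glycosyltransferase, SUCNR1 (2.08), the succinate receptor, and PTPRU (2.02), a receptor phosphatase, completed the set. SUCNR1 was the least even of these in F3, with 4.22 and 2.26 CPM, against 14.1 and 13.3 CPM in G7.

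The 12 largest falls among protein-coding genes, by the same rule, held receptors, transcription factors and other proteins. THADA (chr2:43230836-43596046) stood at 11.1 and 8.74 CPM in F3, against 0.405 and 0.546 CPM in G7, a difference of -4.36 (SE 0.29, adjusted p = 4.27e-08), with the parent at 5.93 and 8.34 CPM. CCR2, the receptor by which monocytes follow CCL2, stood at 10.3 and 9.41 CPM in F3, against 0.709 and 0.844 CPM in G7 (-3.65, SE 0.22, adjusted p = 1.09e-08). CCR1, another chemokine receptor of monocytes, stood at 46.6 and 45.5 CPM in F3, against 9.67 and 7.79 CPM in G7 (-2.40, SE 0.14, adjusted p = 4.70e-09). The parent lay nearer to F3 than to G7 in both receptors, with 15.9 and 15.5 CPM of CCR2 and 67.0 and 76.2 CPM of CCR1.

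GPNMB, a glycoprotein of macrophages and melanocytes, had 17.1 and 19.2 CPM in F3 and 2.99 and 3.43 CPM in G7 (-2.50). AXL, a receptor tyrosine kinase, had 24.95 and 23.3 CPM in F3 and 5.57 and 4.77 CPM in G7 (-2.22). FOS, an immediate early transcription factor, had 16.7 and 16.6 CPM in F3 and 3.44 and 3.97 CPM in G7 (-2.17). For GPNMB and AXL the parent lay nearer to G7, at 4.73 and 7.58 CPM and at 8.95 and 9.14 CPM. The remaining falls were HRC (-2.55), a calcium-binding protein, IFNLR1 (-2.36), the receptor of interferon lambda, IL1RN (-2.24), the interleukin-1 receptor antagonist, MILR1 (-2.01), an inhibitory receptor, NAV1 (-1.88), a microtubule-associated protein, and ZBTB32 (-1.86), a zinc finger repressor. All 24 of these genes kept their call when any of the 4 libraries was left out.

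**Figure D1:**
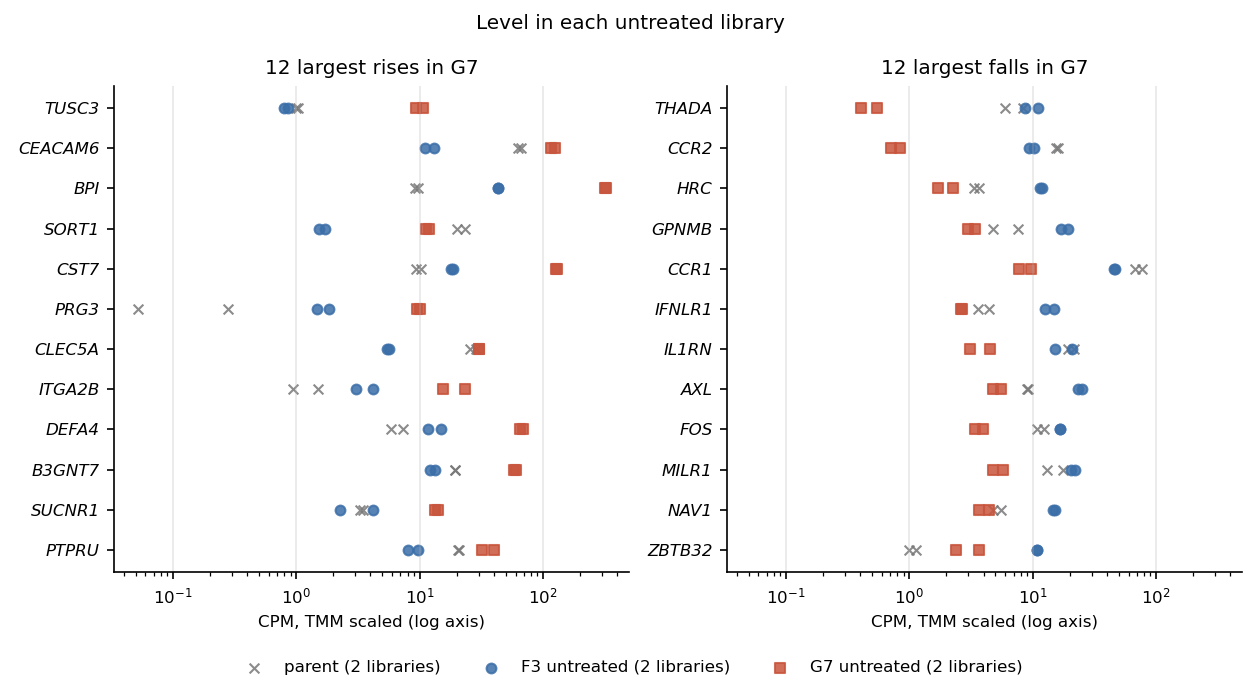
Level of the 12 largest rises and 12 largest falls in G7, in CPM on a log axis, with 1 point per library (F3 circles, G7 squares, parent crosses). Squares lie to the right of the circles in the left panel and to the left of them in the right panel. The rule that picked the genes required that they not overlap. The crosses fall on either side: the parent lay between the lines for 6 of the 12 rises and 8 of the 12 falls.

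Granule genes of the promyelocyte were mostly higher in G7. Of 23 listed genes, 22 were tested, 14 were called higher and 3 lower (77.3% called, against 12.5% of all genes), with a median of 1.03 against 0.01 for all genes. CTSG, the protease cathepsin G, had the highest level of the 4 with the smallest adjusted p: 693 and 753 CPM in F3 and 2213 and 2164 CPM in G7, a difference of 1.60 (SE 0.10, adjusted p = 3.49e-08). ELANE, neutrophil elastase, stood at 257 and 248 CPM in F3, against 525 and 473 CPM in G7 (0.98, adjusted p = 7.61e-06), and MPO, myeloperoxidase, at 41.5 and 38.5 CPM in F3 and 76.3 and 65.4 CPM in G7 (0.83, adjusted p = 9.14e-05). In all 3 the parent was lower than either line, with 324 and 283 CPM of CTSG, 35.1 and 29.7 CPM of ELANE and 25.4 and 25.3 CPM of MPO. The 3 members that fell were LYZ, lysozyme, GRN, progranulin, and CFD, complement factor D, by 1.46, 0.63 and 0.57 on the log2 scale. Reads of DEFA1, DEFA1B and DEFA3 may be split between near-identical copies, so these defensins are not given singly. The 5 promyelocyte markers together summed to 5572 and 5683 CPM in F3 and 8482 and 7833 CPM in G7. In a bulk library, more cells of a type and more RNA per cell cannot be told apart.

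Monocyte and macrophage markers were more often lower in G7. Of 36 listed genes, 26 were tested, 3 were called higher and 14 lower (65.4% called, against 12.5% of all genes), with a median of -0.75. LYZ, a secreted enzyme that digests bacterial walls, fell from 293 and 300 CPM in F3 to 101 and 115 CPM in G7, a difference of -1.46 (SE 0.11, adjusted p = 9.67e-08). LILRB4, an inhibitory receptor of monocytic cells, fell from 168 and 166 CPM to 65.9 and 59.4 CPM (-1.42, SE 0.11, adjusted p = 1.59e-07). The 3 members that rose were FCN1, S100A9 and S100A8, secreted or calcium-binding proteins of both monocytes and neutrophils. FCN1 stood at 0.298 and 0.624 CPM in F3, against 6.99 and 7.59 CPM in G7 (3.96, adjusted p = 4.35e-07). S100A9 stood at 23.6 and 30.5 CPM in F3, against 67.9 and 78.3 CPM in G7 (1.44), and S100A8 at 3.28 and 3.26 CPM in F3 and 7.24 and 10.9 CPM in G7 (1.47); the parent exceeded both lines in S100A9, at 173 and 149 CPM. CD14, the classic monocyte receptor, was low throughout, at 0.746 and 0.672 CPM in F3 and 0.506 and 0.199 CPM in G7, and was not called (adjusted p = 0.299). The 9 monocyte markers summed to 327 and 343 CPM in F3 and 189 and 216 CPM in G7. LYZ, also on the granule list, made up most of each sum. FCN1, S100A9 and S100A8, which are among the 9, went the other way. Without F3 replicate 3, 10 of the 14 lower calls were made.

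Promoter sequence was read for these genes because PU.1, the master transcription factor of monocytes, binds sites with a GAGGAA core. In the 250 bases before the start in RefSeq (GRCh38.p14), GAGGAA on either strand was found for 9 of the 11 monocyte markers called lower that had an entry, 81.8%, against 29.4% of the 9663 tested genes with an entry. Among all genes called lower with an entry the share was 35.2%. Monocyte markers that were not called lower were not counted, so the share cannot be tied to the lower level in G7. The promoters of the 2 such genes with the smallest adjusted p are printed, LILRB4 (chr19:54662735-54662984, plus strand) and MS4A6A (chr11:60184448-60184697, minus strand), with the match in capitals. MS4A6A, a surface protein of monocytes, fell from 19.8 and 20.8 CPM to 8.00 and 8.19 CPM (-1.33).
LILRB4: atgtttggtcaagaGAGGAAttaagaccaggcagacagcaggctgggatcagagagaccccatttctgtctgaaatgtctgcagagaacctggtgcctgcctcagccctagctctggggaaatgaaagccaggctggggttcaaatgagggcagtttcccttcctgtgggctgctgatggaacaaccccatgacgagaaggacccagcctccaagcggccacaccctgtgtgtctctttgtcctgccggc
MS4A6A: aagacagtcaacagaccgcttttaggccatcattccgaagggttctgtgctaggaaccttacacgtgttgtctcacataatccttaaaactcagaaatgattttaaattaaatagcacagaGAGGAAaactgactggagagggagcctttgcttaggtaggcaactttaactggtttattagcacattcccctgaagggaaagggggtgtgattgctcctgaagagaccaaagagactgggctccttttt
SPI1, the gene of PU.1, was itself not called, with 304 and 353 CPM in F3 and 322 and 294 CPM in G7 (-0.09, adjusted p = 0.717). A match of these letters is a description of the sequence and not a measured binding site.

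Some genes of the eosinophil, basophil and mast cell were higher in G7. Of 18 listed, 7 were tested, 4 were called higher and none lower (57.1% called, against 12.5% of all genes), with a median of 1.60. EPX, eosinophil peroxidase, stood at 11.9 and 8.02 CPM in F3, against 38.7 and 30.7 CPM in G7, a difference of 1.81 (SE 0.17, adjusted p = 2.24e-06). The other calls were PRG3, PRG2 and GATA2, and that of PRG2 (1.60, adjusted p = 0.0109) was lost without F3 replicate 2 (adjusted p = 0.134) and with DESeq2 (0.0797). Summed over 8 markers the level was 13.7 and 9.50 CPM in F3, 42.5 and 34.1 CPM in G7 and 2.71 and 2.21 CPM in the parent. CPA3 was at 0 reads in F3 and G7. EPX made up most of this sum in F3 and in G7. Among megakaryocyte and platelet genes, 3 of the 12 tested were called higher and 2 lower (41.7% called), at a median of 0.09, and ITGA2B, at 4.18 and 3.07 CPM in F3 and 23.2 and 15.4 CPM in G7, led them. The lower calls among them were 0 or 1 when any 1 library was left out. The megakaryocyte markers PF4 and PPBP were at 0 reads, and the 6 markers summed to 7.75 and 6.77 CPM in F3 and 27.8 and 18.6 CPM in G7. Whether the shift in these marker sums plays a part in the other differences was not tested.

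Of 49 haematopoietic transcription factors, 41 were tested, 8 were called higher and 4 lower (29.3% called, against 12.5% of all genes), at a median of 0.00. Without F3 replicate 2, F3 replicate 3 or G7 replicate 2 the higher calls were 5, and without G7 replicate 2 the lower ones were 7. GATA1, which drives erythroid, megakaryocyte and eosinophil programmes, was low in F3 at 0.348 and 0.528 CPM and reached 4.96 and 3.72 CPM in G7, a difference of 3.29 (SE 0.34, adjusted p = 4.04e-06). GATA2, its relative in progenitor and mast cells, stood at 43.5 and 38.4 CPM in F3, 105 and 88.6 CPM in G7 and 12.6 and 10.1 CPM in the parent (1.24, SE 0.13, adjusted p = 4.05e-06). CEBPE, which drives late granulocyte maturation, stood at 64.6 and 59.6 CPM in F3, against 121 and 110 CPM in G7 (0.90, SE 0.12, adjusted p = 6.82e-05). GFI1, a repressor active in granulocyte development, stood at 79.1 and 79.2 CPM in F3, against 110 and 94.4 CPM in G7 (0.37, adjusted p = 0.0321), and its call was lost without either F3 library or G7 replicate 2, at adjusted p from 0.223 to 0.254.

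IRF8, which drives monocyte and dendritic cell fate, stood at 484 and 473 CPM in F3, against 241 and 246 CPM in G7, with the parent at 494 and 535 CPM, a difference of -0.98 (SE 0.10, adjusted p = 3.10e-06). HLX, a homeobox factor, fell from 68.9 and 65.5 CPM to 36.8 and 29.04 CPM (-1.03, SE 0.12, adjusted p = 1.92e-05). In both genes F3 was near the parent and G7 lay below. KIT and CD34, surface markers of progenitors, had at most 1 read in the 4 libraries together and were not tested. FLT3, the receptor tyrosine kinase of progenitors, fell from 102 and 89.2 CPM to 41.2 and 41.9 CPM (-1.20, SE 0.11, adjusted p = 1.10e-06). Oncogenes and survival genes of the panel were not called: MYC differed by 0.16 (adjusted p = 0.339), MYB by 0.09 (0.631), CDK6 by 0.17 (0.412), MEIS1 by 0.19 (0.374), HOXA9 by -0.18 (0.345), LMO2 by -0.08 (0.71), MCL1 by -0.13 (0.446), BCL2 by -0.15 (0.404) and BCL2L1 by 0.01 (0.977). CEBPA, the factor that opens the granulocyte programme, stood at 116 and 123 CPM in F3, against 103 and 84.9 CPM in G7 (-0.35, adjusted p = 0.124). Its call depended on the setting: it passed in a fit of the 4 untreated mutant libraries alone (adjusted p = 0.0238) and with no filter (0.0292). After HHT CEBPA differed by -0.67 (adjusted p = 0.000382).

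Genes described as responding to RUNX1 split. Of 40 listed, 26 were tested, 6 were called higher and 7 lower (4 without F3 replicate 3), against 5.46% higher and 7.03% lower over all genes, at a median of -0.05. The 4 with the smallest adjusted p were CTSG, ITGA2B and ELANE, higher in G7, and TREM1, an activating receptor of monocytes and neutrophils, which fell from 4.57 and 4.13 CPM to 1.37 and 1.29 CPM (-1.71, SE 0.23, adjusted p = 8.20e-05). The letters TGTGGT, the core bound by RUNX proteins, stood in the 250-base RefSeq promoters of 10.2% of genes called higher, 15.0% of genes called lower and 11.2% of tested genes.

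Interferon-stimulated genes, which cells switch on through STAT2 and IRF9 to resist viruses, were lower in G7 in 27 of the 56 tested and higher in 3 (53.6% called, against 12.5% of all genes), at a median of -0.39. OASL, a sensor-pathway protein related to the oligoadenylate synthetases, fell from 40.1 and 43.3 CPM to 15.0 and 13.0 CPM, a difference of -1.58 (SE 0.13, adjusted p = 3.07e-07). IFI27 fell from 40.0 and 43.7 CPM to 13.2 and 14.9 CPM (-1.57, SE 0.13, adjusted p = 3.07e-07). IFIT2 and IFIT3, which bind foreign RNA or its partners, fell by 1.35 and 1.12 on the log2 scale, IFIT3 from 61.9 and 68.9 CPM to 28.7 and 31.4 CPM. Both lines stood above the parent in IFI27 and IFIT3, and F3 further above it: the parent had 2.65 and 2.31 CPM of IFI27 and 19.5 and 18.03 CPM of IFIT3, and the median of the list was 1.04 in F3 and 0.60 in G7 relative to the parent. The 3 members higher in G7 were LGALS3BP (1.68), IFITM1 (0.84) and IFITM2 (0.34), and reads of the IFITM genes may be split between similar copies. Calls among the list ranged from 21 lower, without F3 replicate 2, to 29 lower, without G7 replicate 2, and 1 member was called higher without F3 replicate 2.

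A complex that holds STAT2 and IRF9 binds the interferon-stimulated response element near the starts of such genes. Its core, GAAA, any 2 bases and GAAA again, was found on either strand in the 250-base RefSeq promoters of 13 of the 20 list members called lower that had an entry (65.0%), in 12 of 22 tested members that were not called lower (54.5%) and in 3.58% of all tested genes with an entry. The promoters of the 3 genes with a match and the smallest adjusted p are printed with the matches in capitals, TTTC marking the minus strand: IFI27 (chr14:94110486-94110735), IFIT3 (chr10:89327747-89327996) and RSAD2 (chr2:6877527-6877776), all on the plus strand. RSAD2, viperin, an enzyme that makes a chain-terminating nucleotide, fell from 26.9 and 24.7 CPM to 10.4 and 8.69 CPM (-1.43).
IFI27: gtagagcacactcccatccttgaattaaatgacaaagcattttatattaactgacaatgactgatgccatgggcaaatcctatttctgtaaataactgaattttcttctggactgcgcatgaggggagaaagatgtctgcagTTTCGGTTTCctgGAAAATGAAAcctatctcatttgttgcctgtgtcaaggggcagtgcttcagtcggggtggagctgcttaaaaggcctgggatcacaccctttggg
IFIT3: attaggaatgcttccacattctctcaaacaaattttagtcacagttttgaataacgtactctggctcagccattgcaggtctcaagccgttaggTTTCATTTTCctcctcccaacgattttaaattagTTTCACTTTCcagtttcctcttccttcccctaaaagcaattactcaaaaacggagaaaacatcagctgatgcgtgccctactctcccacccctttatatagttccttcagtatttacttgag
RSAD2: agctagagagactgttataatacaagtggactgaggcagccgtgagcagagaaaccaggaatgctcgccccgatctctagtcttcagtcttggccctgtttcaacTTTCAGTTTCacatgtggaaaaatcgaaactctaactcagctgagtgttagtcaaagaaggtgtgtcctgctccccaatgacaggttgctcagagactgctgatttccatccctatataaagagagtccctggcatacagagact
IFI27 and IFIT3 have 2 matches each and RSAD2 has 1.

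Of 21 tested interferon regulatory factors, receptors and sensors, 6 were lower in G7 and 1 higher (33.3% called, against 12.5% of all genes). IRF1 fell from 54.0 and 56.0 CPM to 36.8 and 33.7 CPM (-0.64, adjusted p = 0.000636) and IRF7 from 58.9 and 53.9 CPM to 36.1 and 28.3 CPM (-0.81, adjusted p = 0.000636), both transcription factors of the interferon response. CGAS, the sensor of cytosolic DNA, fell from 51.7 and 52.2 CPM to 32.9 and 34.1 CPM (-0.63, adjusted p = 0.0013). The member that rose was IFNAR1, a chain of the receptor of type I interferon, on chromosome 21, from 60.3 and 57.1 CPM to 76.2 and 86.1 CPM (0.47, adjusted p = 0.0108), a call lost without F3 replicate 2, F3 replicate 3 or G7 replicate 3. The receptor chain and the factors named here differed in opposite directions.

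MHC class II genes, which present antigen to helper T cells, were lower in G7 in 5 of 10 tested, at a median of -0.79. In either direction 60% of these genes were called, against 12.5% of all genes. CIITA, their transcriptional activator, fell from 26.9 and 26.7 CPM to 13.8 and 12.5 CPM (-1.03, SE 0.13, adjusted p = 3.06e-05). CD74, the invariant chain, fell from 445 and 470 CPM to 284 and 267 CPM (-0.73, SE 0.10, adjusted p = 7.22e-05), and HLA-DRA from 44.1 and 48.9 CPM to 23.7 and 27.0 CPM (-0.88, SE 0.12, adjusted p = 0.000126). In HLA-DRA both lines stood above the parent, at 5.62 and 6.97 CPM. The member called higher, HLA-DPB1, was at or under 1.06 CPM in every library, and its call was lost when any library was left out. Reads of HLA genes depend on how well the line's own alleles align to the reference. Of 18 tested class I and peptide loading genes, 6 were called lower, led by TAP1, the peptide transporter, from 93.5 and 85.8 CPM to 54.7 and 47.0 CPM (-0.82, adjusted p = 8.09e-05), and 2 higher. Without F3 replicate 3, 3 of these were called lower, and 0 or 1 was called higher when any 1 library was left out.

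Cytokine receptors and their feedback genes were lower in 10 of 28 tested and higher in 3 (46.4% called, against 12.5% of all genes), at a median of -0.33. After FLT3, the smallest adjusted p belonged to TNFRSF1B, a receptor of TNF, from 139 and 140 CPM to 75.5 and 66.0 CPM (-0.98), IL6R, the interleukin-6 receptor, from 309 and 283 CPM to 186 and 167 CPM (-0.75), and IL2RG, the shared gamma chain, which rose from 30.9 and 30.3 CPM to 54.8 and 51.2 CPM (0.79). Immediate early genes respond to growth factors and stress within minutes. They were lower in 14 of 44 tested and higher in 1 (34.1% called), at a median of -0.23. After FOS, the smallest adjusted p belonged to KLF4, also a monocyte factor, from 9.49 and 10.0 CPM to 2.79 and 3.13 CPM (-1.72), FOSL2 (-0.97) and ZFP36 (-0.68), which destabilises cytokine mRNA. FOS and KLF4 had the largest differences of the 4 immediate early genes named. Without F3 replicate 3, 6 receptors and 9 immediate early genes were called lower, and without F3 replicate 2, 6 receptors.

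The integrated stress response is carried out by ATF4 when translation initiation is checked. Of its 45 tested members 14 were lower and 2 higher (35.6% called, against 12.5% of all genes), at a median of -0.21. Its leading members were NUPR1, a stress cofactor, from 33.1 and 42.3 CPM to 10.2 and 11.1 CPM (-1.82, adjusted p = 3.10e-07), DDIT3, the factor CHOP, from 85.4 and 86.8 CPM to 44.8 and 49.7 CPM (-0.87), PPP1R15A (-0.80), the phosphatase subunit that ends the response, and ATF3 (-0.85). Without F3 replicate 3, 4 members were called lower, and without F3 replicate 2, 9. Cholesterol synthesis genes were lower in 9 of 32 tested (28.1%, against 7.03% of all genes called lower) and higher in none, at a median of -0.24. Among them were FADS1 (-0.58), a fatty acid desaturase, and HMGCS1 (-0.68), an enzyme of the mevalonate pathway. The count of lower calls was 3 without F3 replicate 2 and 4 without F3 replicate 3. Glycolysis and hypoxia genes were lower in 10 of 36 tested and higher in 1 (30.6% called), at a median of -0.18. SLC2A3, a glucose transporter, led them, from 173 and 184 CPM to 91.5 and 101 CPM (-0.89, adjusted p = 2.72e-05). The single higher call among them was lost without F3 replicate 2, F3 replicate 3 or G7 replicate 2.

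Transcripts of the mitochondrial genome were higher in 8 of 15 tested (53.3%, against 5.46% of all genes called higher), at a median of 0.41. After HHT 15 of 15 were called higher, against 14.9% of all genes, at a median of 0.83. Their share of reads there was 1.76 and 1.69% in F3 and 2.98 and 2.99% in G7. Without drug MT-CYB, a subunit of respiratory complex III, stood at 1372 and 1045 CPM in F3, against 1764 and 1844 CPM in G7 (0.58, SE 0.14, adjusted p = 0.00861). F3 was uneven here: mitochondrial transcripts took 3.59 and 2.71% of its reads, against 3.80 and 4.20% in G7, and no member was called without F3 replicate 3. The share of reads from mitochondrial transcripts is also a measure of RNA quality, and its part in the other differences was not tested. With these transcripts left out, 1760 genes were called. Of 79 tested genes of cytosolic ribosomal proteins 6 lay above 0 in fold change without drug, against 51.7% of all genes. After HHT 54 of the 79 were called lower and 1 higher, against 17.1% and 14.9% of all genes, at a median of -0.18. Fewer were called without drug. Cytosolic ribosomal protein genes were lower in 6 of 79 tested (7.59%, against 7.03% of all genes), at a median of -0.19, and the count was 1 without F3 replicate 3, 3 without G7 replicate 2, 10 without G7 replicate 3 and 10 without mitochondrial transcripts. Ribosome biogenesis genes were higher in 6 of 45 tested (13.3%, against 5.46% of all genes called higher and 12.5% called in either direction), at a median of 0.12, and in 2 when either F3 library was left out. Mitosis and spindle genes had 1 call of 46 (4 without G7 replicate 3) and nonsense-mediated decay factors 0 of 20, and the HOXA, MEIS1 and PBX3 programme had 1 call of 16, FLT3.

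**Figure D2:**
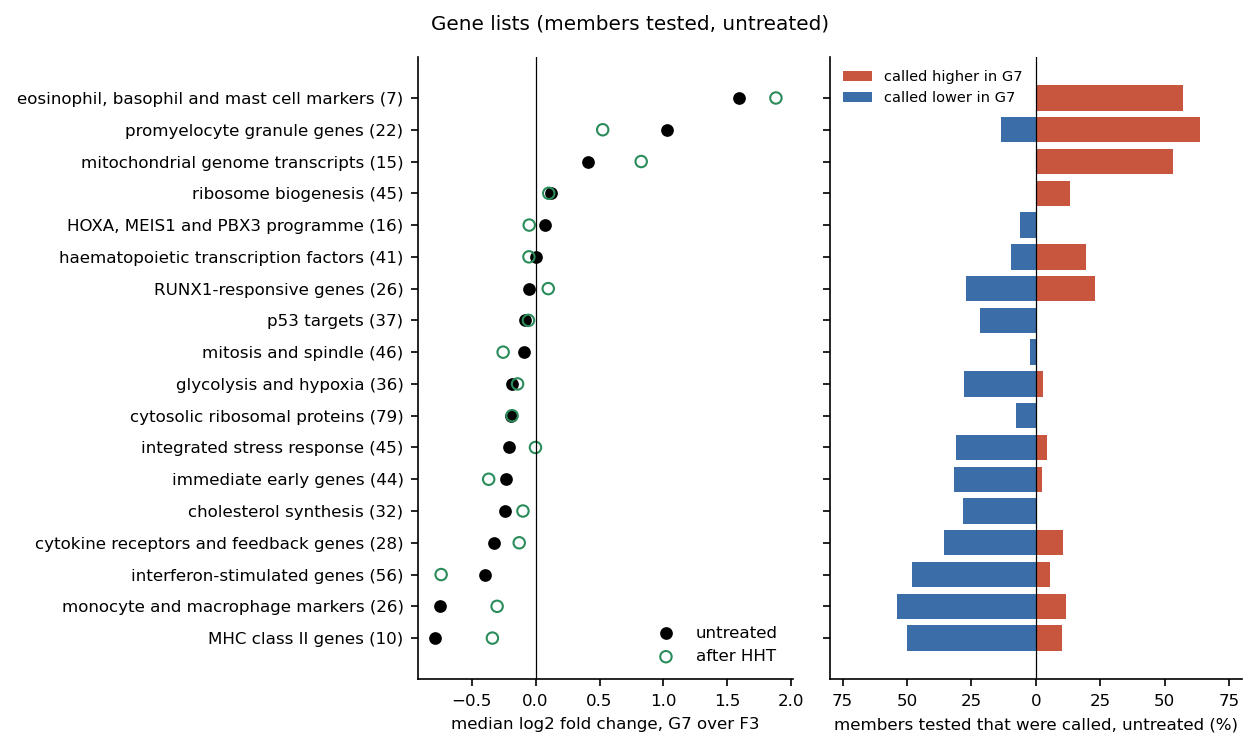
Median log2 fold change (G7 over F3) of 18 gene lists, untreated as filled circles and after HHT as open circles, and the percentage of members tested that were called higher (right of 0) or lower (left of 0) in G7 untreated. The number of members tested stands after each name. Granule and eosinophil lists lie above 0, and interferon, monocyte and MHC class II lists below it, in both sets of libraries.

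Chromosome 21, which carries RUNX1, differed between the lines along its length. Of its 138 tested genes, 63 were called higher in G7 and 3 lower (47.8% called, against 12.5% of all genes), and 122 lay above 0 in fold change. The median was 0.47, a fold of 1.38, and the quartiles were 0.22 and 0.68. Other nuclear chromosomes had medians of -0.11 (chromosome 7) to 0.06 (chromosome 5). Genes of chromosome 21 took 0.496 and 0.483% of reads in F3, 0.658 and 0.635% in G7 and 0.659 and 0.656% in the parent. F3 was thus the line apart: relative to the parent the chromosome 21 median was -0.36 in F3 and 0.07 in G7. The exact permutation test over the 2 libraries of each line gave p = 0.333 for the share of reads, the smallest it allows.

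Of the 4 protein-coding genes of chromosome 21 with the smallest adjusted p, 3 were higher in G7 and 1 lower. TFF3, a secreted trefoil peptide, stood at 0.348 and 0.768 CPM in F3, against 8.41 and 8.49 CPM in G7 (3.90, SE 0.29, adjusted p = 1.28e-07). OLIG1, a transcription factor, stood at 4.37 and 4.90 CPM in F3, against 17.3 and 13.5 CPM in G7 (1.73, SE 0.19, adjusted p = 9.90e-06). Both were also low in the parent, at 1.15 and 0.895 CPM and at 2.76 and 1.74 CPM. UBE2G2, a ubiquitin-conjugating enzyme, had 59.1 and 57.4 CPM in F3, 100.0 and 99.5 CPM in G7 and 95.1 and 88.2 CPM in the parent (0.78, SE 0.10, adjusted p = 6.47e-05), so F3 was below the other lines. ITGB2, the beta-2 integrin of leukocytes, went against its chromosome, from 123 and 110 CPM in F3 to 65.7 and 54.2 CPM in G7 (-0.95, SE 0.12, adjusted p = 2.47e-05). The other 2 lower calls were MX2, an interferon-stimulated gene (-0.66), and LINC01694 (-1.05), a noncoding RNA.

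The difference was present on both sides of RUNX1. Without RUNX1 the median was 0.47 over 137 genes. The 61 genes on the side of RUNX1 nearer the centromere or on the short arm had a median of 0.49 and the 76 on the other side 0.43. Every one of 114 overlapping windows of 25 neighbouring tested genes along the chromosome had a median over 0.25, from 0.33 to 0.59. A window starts at each successive gene, so neighbouring windows share most of their genes and their numbers do not count separate observations. On the other chromosomes 14 windows in all passed 0.25, on chromosomes 8 (4), 12 (4) and 15 (6), and 44 fell under -0.25, on chromosomes 6 (6), 7 (17) and 19 (21). Even the 72 chromosome 21 genes not called had a median of 0.27. Leaving out each library in turn gave chromosome medians of 0.42 to 0.49. These counts do not measure DNA copy number. Without the genes of chromosome 21, 1651 genes were called, 697 of them higher in G7.

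In the HHT libraries, none of which entered the untreated comparison, the chromosome 21 median was again 0.47, with 92 of 140 tested genes called higher in G7 and 6 lower. Over all genes tested after HHT, 14.9% were called higher and 17.1% lower. The share of reads from chromosome 21 was 0.572 and 0.564% in F3 and 0.776 and 0.762% in G7. In the RiboLace libraries, which hold F3 but not G7, the chromosome 21 median of F3 relative to the parent was -0.24 over 91 genes, beside -0.01 over all genes. The X chromosome stood as low there, at -0.23, against -0.10 in total RNA.

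**Figure D3:**
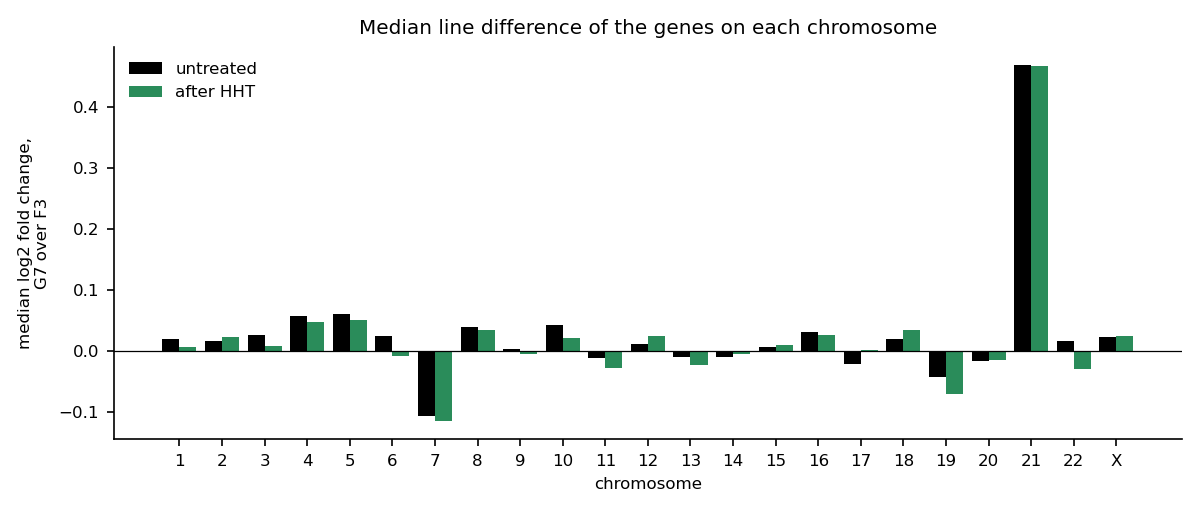
Median log2 fold change (G7 over F3) of the tested genes on chromosomes 1 to 22 and X, untreated (black) and after HHT (green). Chromosome 21 stands at 0.47 in both, and the others lie within -0.11 to 0.06 untreated.

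**Figure D4:**
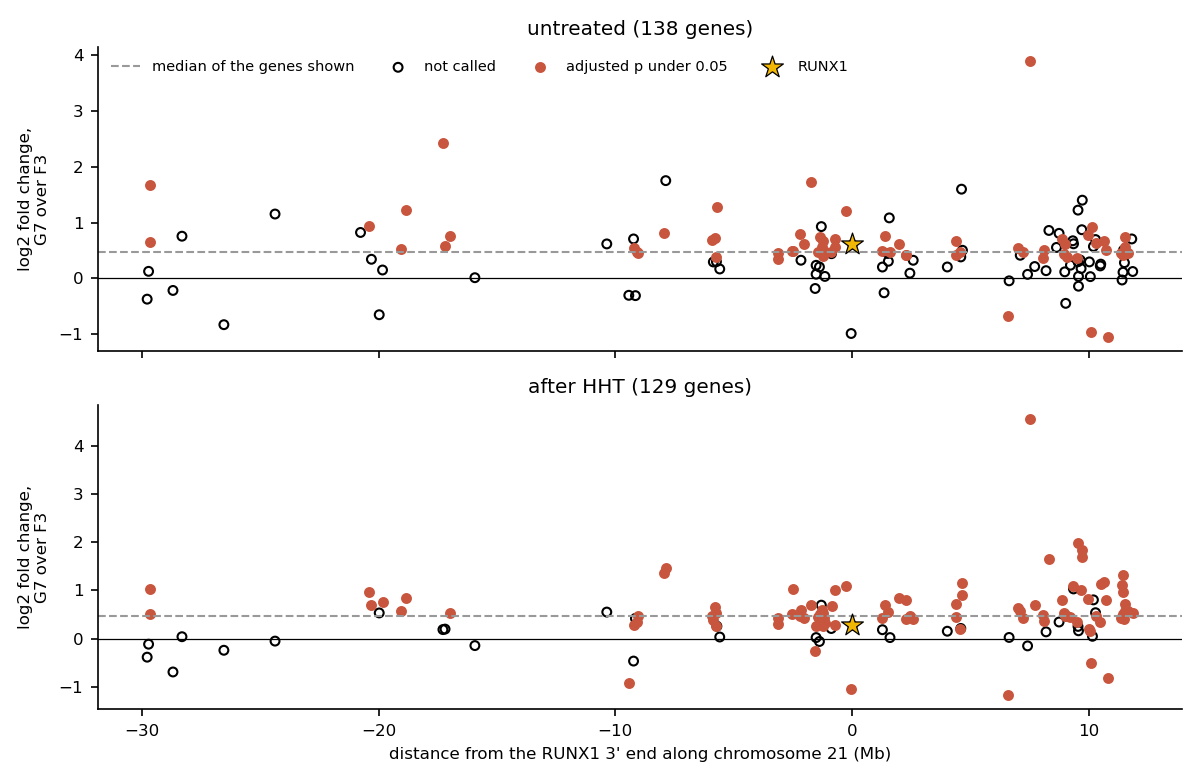
Log2 fold change (G7 over F3) of each tested chromosome 21 gene against its distance in Mb from the 3' end of RUNX1, untreated (138 genes) and after HHT (the 129 of them tested there). Filled points passed an adjusted p of 0.05, the dashed line is the median of the genes shown (0.47 in each panel), the star is RUNX1, and points above 0 run the length of the chromosome.

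A few genes were read almost only in 1 of the lines. SPANXB1, a cancer-testis gene of the X chromosome normally expressed in the testis, had 1 read in the 2 F3 libraries together and 340 in G7, a ratio of 349 with an exact 95% interval of 62.2 to 13830 that covers counting error only. By line that was 0 and 0.0480 CPM in F3, 8.20 and 8.84 CPM in G7 and 8.43 and 7.72 CPM in the parent. Its near-identical relatives can share reads with it. These further genes were chosen after their values were seen. CDH12, a cadherin, had 0 reads in F3 and 136 in G7, so it was at least 46.5-fold higher at a floor of 3 reads over the 2 libraries. CPXCR1, an X-linked gene, had 0 and 108 reads (at least 37.0-fold), and TMEM185B had 0 and 66 (at least 22.6-fold). The parent had reads of each: 0.416 and 0.424 CPM of CDH12, 0.364 and 0.0471 CPM of CPXCR1, and 1.25 and 1.32 CPM of TMEM185B. In the other direction the noncoding RNA AFAP1-AS1 stood at 59.6 and 57.7 CPM in F3, 1.62 and 2.13 CPM in G7 and 25.2 and 29.4 CPM in the parent, a difference of -4.96 (SE 0.17, adjusted p = 7.46e-12); it lies antisense to AFAP1, and whether the counting used strand is not given in the sources used here.

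The line difference was looked up in the 4 HHT libraries, which share no library with the untreated ones. There 4355 of 13618 genes were called (32%), 14.9% higher and 17.1% lower in G7. Of the 1743 untreated calls 1655 were tested after HHT, 1476 had the same direction (89.2%) and 1062 were called in that direction (64.2%), while 45 were called in the opposite one. Genes not called untreated had the same direction in 64.1% and were called in it in 20.4%. The shared calls made up 24.4% of the HHT calls tested in both. Across 13043 genes the 2 sets of fold changes had a Pearson r of 0.668, given as a description, since genes are not independent and each set holds the same lines.

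Of the 24 largest differences 23 were tested after HHT, all in the same direction, and 22 were called. CCR2 was not tested there. CEACAM6 (3.46), BPI (3.00) and CST7 (2.76) were higher in G7 after HHT too, and THADA (-3.87) and CCR1 (-2.06) lower. GPNMB was not called after HHT, at -0.31 (adjusted p = 0.619), and IL1RN differed by -0.33 (adjusted p = 0.0128). Among lists, interferon-stimulated genes had 49 called lower and 3 higher of 56 after HHT, at a median of -0.74. Granule genes had 13 higher and 2 lower of 20, at a median of 0.53. Monocyte markers had 4 higher and 10 lower of 23, at a median of -0.30. Over all genes 14.9% were called higher and 17.1% lower there, and the higher calls among monocyte markers were near that share. Without G7 HHT replicate 1 the HHT libraries gave 1081 calls and 516 shared ones, and without F3 HHT replicate 3 they gave 2540 and 853.

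**Figure D5:**
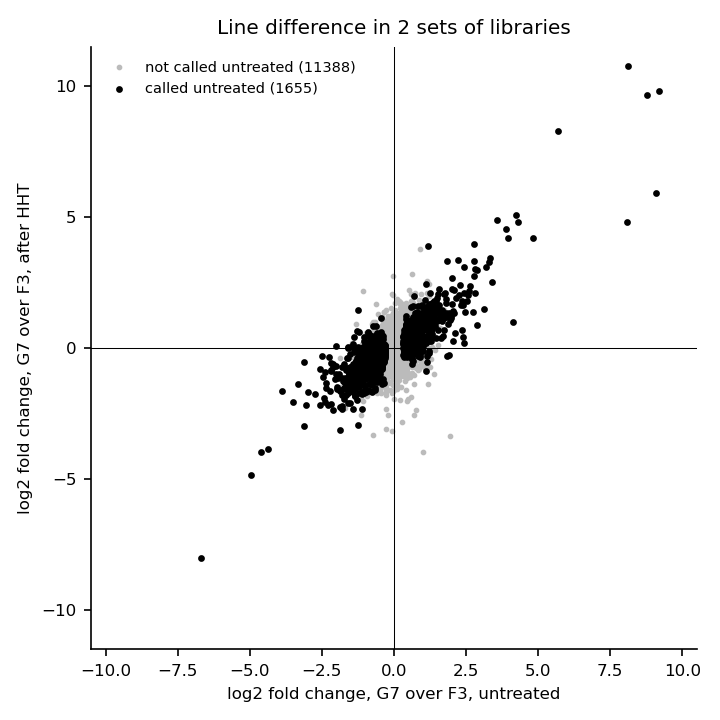
Log2 fold change (G7 over F3) after HHT against that without drug for 13043 genes tested in both, with 1655 genes called untreated in black and 11388 others in grey. The black points lie mostly at the lower left and upper right: 1476 of them had the same direction in both.

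Set beside the parent, neither line was the constant one. The parent's mean lay between the lines for 401 of 762 genes higher in G7 and 537 of 981 lower in G7, against 25.5% of genes not called. Called genes are picked for a wide gap between the lines, into which another value falls more often. The contrast with genes not called therefore says nothing about the parent. Both lines exceeded the parent's mean in 239 of the higher and 207 of the lower genes, and both fell below it in 122 and 237. By nearness, the parent was closer to F3 for 450 of the higher genes and 511 of the lower ones. On chromosome 21 the parent was nearer to G7 for 49 of the 66 called genes. The parent libraries carry another treatment label than the lines, so genotype and treatment cannot be told apart in these positions.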

How the data were processed

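The authors deposited raw read counts per gene for 14 libraries, of which 4 make the comparison. STAR 2.6.0b, DESeq2 and GRCh38 are listed, per the submitters' processing notes; the sources used here do not give the counting program, annotation or strandedness. Of 58037 gene IDs, 57388 matched GENCODE 29 by ID, and all 14 columns matched a label. Counts were fitted with edgeR 4.0.16 in R 4.3.3 (filterByExpr, TMM, quasi-likelihood F-test, Benjamini-Hochberg adjustment over all genes tested, threshold 0.05). The untreated fit held 6 libraries, the parent's included, which share the estimate of the spread; HHT libraries (20142280 to 21925693 reads) and RiboLace libraries each had a fit of their own. Standard errors (SE) were taken as the size of a log2 fold change over the root of its F statistic. The members and lists were chosen with earlier results of these data known.

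The text names the 12 highest and 12 lowest fold changes among called protein-coding genes without overlap and averaging 5 CPM or more, a panel of regulators, up to 4 members per list with the smallest adjusted p, and up to 4 per chromosome described. Promoters came from RefSeq. Genes at 0 reads in a line took a floor of 3 reads over its 2 libraries. The script was tested on simulated data. Alternatives were RLE size factors, library totals, no filter, DESeq2 1.42.0, limma-voom 3.58.1, other sets of libraries or genes, a 1.5-fold minimum, a replicate block and each library left out.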

Additional observations from a re-analysis of the deposited data

Results flagged for a closer look

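The line difference was set against itself after HHT in 1 fit of the 8 mutant libraries, with edgeR's test of the interaction, and 548 of 14435 genes passed. Among the 24 largest differences, 7 passed, each with the same direction in both sets and a smaller size after HHT. For the 2 genes higher in G7, the log2 difference changed by -1.07 in CLEC5A (2.46 untreated and 1.39 after HHT, adjusted p = 0.000508) and by -0.70 in DEFA4 (2.33 and 1.63, adjusted p = 0.024). For the 5 lower in G7 it changed by 2.18 in GPNMB (-2.50 and -0.31, adjusted p = 0.00883), 1.90 in IL1RN (-2.24 and -0.33, adjusted p = 0.000495), 1.27 in FOS (-2.17 and -0.89, adjusted p = 0.000508), 1.03 in IFNLR1 (-2.36 and -1.32, adjusted p = 0.00434) and 0.99 in MILR1 (-2.01 and -1.01, adjusted p = 0.00288). The untreated and HHT values are each from the fit of those libraries. The 24 genes were chosen for large differences in the same untreated libraries, which by itself favours a smaller size after HHT. That all 7 were smaller after HHT is therefore not read as an effect of HHT.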

How the results depend on the processing

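Genes called went from 1743 to 2727 with the 8 mutant libraries as 4 groups (1231 higher, 1496 lower) and to 301 with a 1.5-fold minimum (121 higher, 180 lower), where RUNX1 (0.61) was no longer called (adjusted p = 1). Leaving out each library gave 847 to 1762 calls, 311 to 886 higher and 536 to 906 lower. RLE size factors, library totals, no filter, DESeq2, limma-voom, the 4 untreated libraries alone and protein-coding genes alone gave 1446 to 2166. The chromosome 21 median was 0.37 with no filter. In the HHT libraries, leaving out each in turn gave 1081 to 3677 calls and 516 to 921 shared ones. Of 2878 values of 181 named genes, 205 lost the call, 10 gained one and 0 reversed. Removing chromosome 21 genes, removing mitochondrial transcripts, leaving out HHT libraries, and the other settings for chromosomes and lists were chosen after seeing the data. With library totals the share of calls that were higher in G7 was 49.2% against 43.7%. The replicate number as a block gave 3217 calls (1547 higher, 1670 lower), and same-numbered libraries deviated together with r of 0.241, but the titles number the same libraries otherwise and only 2 pairs exist, so the number is not taken to pair them. Replicates differed by more than counting error, and how far depth or replicate spread limited the calls was not tested.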
